A study of Mus musculus with 84 samples.

Results

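The 8 genes Hmgcs1, Idi1, Fdps, Fdft1, Sqle, Lss, Insig1 and Srebf2 make cholesterol or control its making in mouse cells. They were found by symbol in both deposited expression tables, where each had 1 row among 50692 genes. Of the 8 genes, 6 code for enzymes and 2 for regulators, and none is itself a receptor for cholesterol uptake. The study knocked down YTHDF2 or YTHDF3, which bind N6-methyladenosine in mRNA, while fibroblasts were turned into pluripotent cells. RNA was measured in 70 libraries, 2 per group. Every reprogramming library, controls included, came from mouse embryonic fibroblasts (MEFs) that had received retroviral Oct4, Klf4 and Sox2 plus a puromycin-selected hairpin. The hairpin was shLuc, which targets luciferase and was the control, or shYthdf2 or shYthdf3. The time course sampled all 3 arms at days 1, 3, 5 and 7 (24 libraries), with day 0 set at the switch to reprogramming medium. The cell lines were MEFs at passage 2, embryonic stem (ES) cells of strain CBA/CaJ X C57BL/6J at passages 20 to 25 and induced pluripotent stem (iPS) cells at passages 5 to 8, each with the same 3 hairpins (18 libraries). A further 4 libraries compared shTead2 with shLuc at day 1. The last 24 came from day 1 cells of the 3 arms kept for 4 h or 8 h in 10 μg/ml actinomycin D, which blocks transcription, or in its solvent DMSO. Media differed, since reprogramming cells grew in iCD1, ES and iPS cells in N2B27 with 2i and LIF, and MEFs in serum. Medium and cell type therefore cannot be told apart. Strain is not given for the MEFs or iPS cells.

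Cholesterol is built from acetyl-CoA. HMG-CoA synthase (Hmgcs1) opens the mevalonate branch, isopentenyl diphosphate isomerase (Idi1) and farnesyl diphosphate synthase (Fdps) make farnesyl diphosphate, and squalene synthase (Fdft1), squalene epoxidase (Sqle) and lanosterol synthase (Lss) lead on to the first sterol. When sterols are scarce, the precursor of the transcription factor SREBP2 (Srebf2) is carried to the Golgi and cut, and the released part switches on the genes of the pathway. When sterols are plentiful, INSIG1 (Insig1) holds that precursor in the endoplasmic reticulum. Because Insig1 is itself an SREBP target, the pathway feeds back on itself.

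Promoter windows of 300 bases around the start of the gene were found for 5 of the 8 genes (Hmgcs1, Idi1, Lss, Insig1 and Srebf2; RefSeq, GRCm38.p6). The windows of Hmgcs1 (chr13:119690101-119690400), Insig1 (chr5:28071162-28071461) and Srebf2 (chr15:82147019-82147318), all on the plus strand, are shown. Of the peaks described further on, those of open chromatin lie over all 5 windows. A TEAD2 peak lies over the Insig1 and Srebf2 windows and not over that of Hmgcs1. Capitals mark matches, on either strand, to CCAAT (the NF-Y box; ATTGG when on the minus strand), GGGCGG (the GC box; CCGCCC) and CACNCCAC (a form of the sterol regulatory element).
Hmgcs1: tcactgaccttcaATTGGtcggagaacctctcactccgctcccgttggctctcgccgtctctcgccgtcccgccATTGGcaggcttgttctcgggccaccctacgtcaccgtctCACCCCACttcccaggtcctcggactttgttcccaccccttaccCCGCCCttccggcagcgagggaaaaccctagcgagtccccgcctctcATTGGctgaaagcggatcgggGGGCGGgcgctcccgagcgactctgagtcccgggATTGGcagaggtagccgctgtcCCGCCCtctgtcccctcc
Insig1: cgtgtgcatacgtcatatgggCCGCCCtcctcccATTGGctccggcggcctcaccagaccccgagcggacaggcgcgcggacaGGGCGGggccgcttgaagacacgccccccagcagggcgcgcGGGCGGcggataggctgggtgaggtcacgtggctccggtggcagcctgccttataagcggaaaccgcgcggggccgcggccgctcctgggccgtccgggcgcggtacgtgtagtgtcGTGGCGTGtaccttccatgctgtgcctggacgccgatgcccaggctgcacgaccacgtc
Srebf2: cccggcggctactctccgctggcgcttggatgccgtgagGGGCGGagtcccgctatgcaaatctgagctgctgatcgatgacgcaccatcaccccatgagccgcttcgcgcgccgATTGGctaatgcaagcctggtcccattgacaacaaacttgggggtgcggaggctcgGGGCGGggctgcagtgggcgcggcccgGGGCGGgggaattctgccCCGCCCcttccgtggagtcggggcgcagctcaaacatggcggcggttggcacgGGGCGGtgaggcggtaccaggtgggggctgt
CCAAT and GGGCGG were each found in 5 of the 5 windows, against 37.39% and 35.63% of 32817 promoters of the same length. CACNCCAC was found in 2 of 5, against 6.244% of all: as CACCCCAC in Hmgcs1, first base at position -136 with the start of the gene as 0, and as CACGCCAC on the minus strand in Insig1, first base at -9. No match to one of these motifs overlapped a match to another in the 5 windows. A match describes the letters only. The shares are of all promoters and were not taken among open promoters or those of expressed genes.

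Expression is in TPM, a relative unit that counts transcripts per fixed total, is scaled for transcript length and keeps no read depth, so the reads behind a value are not known. All 8 genes passed the filter of 1 TPM in at least 2 libraries in each fit. Differences are in log2(TPM + 1) from limma, ± its standard error, and a gene is called at a Benjamini-Hochberg adjusted p under 0.05 over all genes tested. Unless a replicate block is named, the fit took no account of replicate number. Replicate numbers did pair samples of the time course and of the actinomycin D experiment, as given further on. No source says that the 2 libraries of a group came from separate cultures or animals, so p-values measure the spread between libraries, which may be technical. Where groups are said not to overlap, the share of all genes without overlap was not taken. Such a statement describes the libraries and is not a test. The libraries listed 11488 to 16443 genes at 1 TPM or more. The targeted genes were checked first. Ythdf2 fell with shYthdf2 over the time course (-1.60, adjusted p = 0.0034), in ES cells (-1.53, adjusted p = 0.00102) and in iPS cells (-1.71, adjusted p = 0.00075), and Ythdf3 fell with shYthdf3 over the time course (-1.19), in ES cells (-1.21), in iPS cells (-1.15) and in MEFs (-0.96). In MEFs, Ythdf2 was at 30.2 and 27.8 TPM with shLuc and 19.2 and 14.6 TPM with shYthdf2, and was not called (-0.76, adjusted p = 0.071). The 6 fibroblast markers summed to 4020 to 5943 TPM in MEFs and 2.85 to 15.5 TPM in ES and iPS cells. The 6 pluripotency markers summed to 4437 TPM or more in ES and iPS cells and to 1.37 TPM or less in MEFs.

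Fdps was the most abundant of the 8 genes in 67 of 70 libraries, and Insig1 in the other 3. In the time course Fdps ranged from 110.6 to 454.8 TPM (median 210.9), while Idi1 ranged from 29.1 to 141.5 TPM (median 71.1). The plot of levels by cell type and day shows all time course and cell line values.

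**Figure D1:**
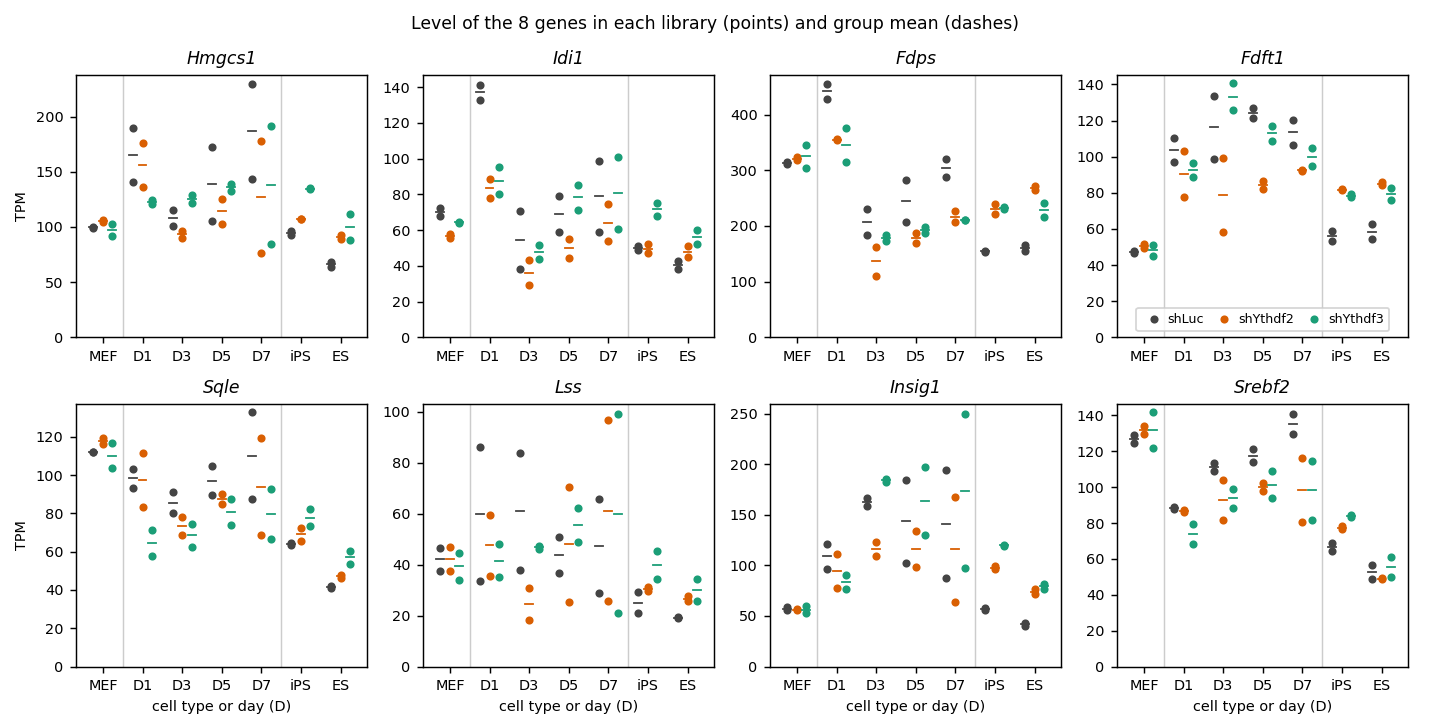
Level in TPM (y axis, linear) of each gene in MEFs, at days 1, 3, 5 and 7 (D) of reprogramming, and in iPS and ES cells (x axis). Points are libraries, 2 per group, dashes are group means, and colours are the hairpins. In shLuc cells Fdps runs from 313.5 TPM in MEFs to 441.7 at day 1, 206.7 at day 3 and 160.1 in ES cells, and Sqle and Srebf2 are lower in ES and iPS cells than in MEFs.

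In shLuc cells, most of the genes were lower in pluripotent cells than in fibroblasts. Sqle, the epoxidase, was at 112.2 TPM in both MEF libraries, at 63.7 and 64.3 TPM in iPS cells and at 41.99 and 41.1 TPM in ES cells. The 3 cell types did not overlap. Sqle was lower than in MEFs by -1.41 ± 0.085 in ES cells (adjusted p = 2.04e-08) and by -0.80 ± 0.085 in iPS cells (adjusted p = 3.9e-06). Srebf2 was at 129.1 and 124.7 TPM in MEFs, 64.4 and 68.9 TPM in iPS cells and 48.9 and 56.9 TPM in ES cells, again with no overlap. Its differences from MEFs were -1.25 ± 0.103 in ES cells (adjusted p = 3.95e-07) and -0.92 ± 0.103 in iPS cells (adjusted p = 6.65e-06). Fdps stood at 315.6 and 311.4 TPM in MEFs against 165.5 and 154.7 TPM in ES and 155.7 and 153.2 TPM in iPS cells, which overlapped each other. Fdft1 went the other way, from 46.5 and 47.8 TPM in MEFs to 62.5 and 54.2 TPM in ES cells (0.30 ± 0.086, adjusted p = 0.00896) and 53.6 and 58.6 TPM in iPS cells (0.24 ± 0.086, adjusted p = 0.0256). In ES cells 7 genes were called lower than in MEFs and 1 higher, and in iPS cells 5 and 1. These counts stand against 62.9% and 62.4% of all genes called, so they say little about the 8 genes. The median difference of the 8 was -0.87 in ES and -0.61 in iPS cells, where that of all genes was 0.00 and 0.06. Fdft1 was not called without ES replicate 1 (0.20, adjusted p = 0.102) in ES cells, nor in iPS cells without iPS replicate 2, MEF replicate 1 or MEF replicate 2 (adjusted p = 0.17, 0.103 and 0.0612). Lss in iPS cells (-0.74) was not called without iPS replicate 2 (adjusted p = 0.0862) or MEF replicate 1 (adjusted p = 0.0674). Where such a fit leaves 1 library in a group, that library is assumed to vary like the other groups. In iPS cells Hmgcs1 (-0.08, interval -0.29 to 0.13) and Insig1 (-0.01, interval -0.17 to 0.16) were not called.

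Between the 2 pluripotent cell types, 5 genes were called higher in iPS than in ES cells and none lower, against 20.3% of all genes called in either direction. Sqle differed by 0.61 ± 0.085 (adjusted p = 0.000609), Hmgcs1 by 0.51 ± 0.096 (adjusted p = 0.00364) and Insig1 by 0.44 ± 0.075 (adjusted p = 0.0021), and these 3 calls held without any 1 of the 4 libraries. Idi1 (0.30, adjusted p = 0.0498) and Srebf2 (0.33, adjusted p = 0.0419) did not hold: Idi1 was lost without any 1 library (adjusted p 0.0529 to 0.271), and Srebf2 without ES replicate 1 (0.22, adjusted p = 0.266), iPS replicate 1 (0.38, adjusted p = 0.0891) or iPS replicate 2 (0.28, adjusted p = 0.192). With each library scaled by the median ratio, 3 genes were called. The order of mean levels was MEF, iPS, ES for Hmgcs1, Idi1, Sqle, Lss, Insig1 and Srebf2, with neighbours not called for Hmgcs1 and Insig1 (MEF and iPS) and Lss (iPS and ES). Fdps ran MEF, ES, iPS and Fdft1 ES, iPS, MEF, and neither differed between iPS and ES cells at the threshold (intervals -0.21 to 0.11 and -0.24 to 0.13). Among the 39 other genes of the pathway lists, all of which were tested, 25 were lower and 7 higher in ES cells than in MEFs. The lists cover mevalonate and later sterol steps, sterol sensing and cholesterol uptake. They also cover cholesterol efflux and fatty acid synthesis, which are not steps of cholesterol synthesis. Those named here were Mylip, an E3 ligase that lowers cholesterol uptake (26.4 to 1.29 TPM, -3.58), and the desaturases Scd1 (74.2 to 12.1 TPM, -2.54) and Scd2 (377 to 108 TPM, -1.80). All 6 fatty acid synthesis genes were called higher in iPS than in ES cells.

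At day 1 of reprogramming 3 of the genes were higher than in MEFs and 1 was lower. Fdft1 was at 110.4 and 96.8 TPM at day 1 in shLuc cells against 46.5 and 47.8 TPM in MEFs, a difference of 1.12 ± 0.177 (adjusted p = 3.08e-05) in the joint fit of 42 libraries. Idi1 was at 141.5 and 133.1 TPM against 72.3 and 68.1 TPM (0.96 ± 0.261, adjusted p = 0.00849), and Fdps was higher by 0.49 ± 0.152 (adjusted p = 0.0208). Srebf2 was lower, at 89.1 and 87.9 TPM against 129.1 and 124.7 TPM (-0.51 ± 0.162, adjusted p = 0.0235). No library of day 1 overlapped a MEF library for any of these 4. The count of 3 higher and 1 lower stands against 20.8% of all genes called, and the members' median was 0.60 where that of all genes was 0.00. The Fdft1 call held without any 1 library, with a difference of 1.02 to 1.21. Those of Fdps and Srebf2 were lost without any 1 of the 4 libraries (adjusted p 0.055 to 0.116 and 0.0822 to 0.126), and that of Idi1 without day 1 replicate 1 (0.91, adjusted p = 0.0564) or MEF replicate 2 (0.91, adjusted p = 0.0639). With the shLuc day 1 libraries of the Tead2 experiment in place of those of the time course, 2 genes were called. Idi1, at 88.8 and 89.1 TPM there, then differed from MEFs by 0.34 (adjusted p = 0.48) and Insig1, at 133.7 and 132.5 TPM, by 1.21 (adjusted p = 0.0248). MEFs and day 1 cells also belong to separate experiments, which cannot be told apart from the change of state. Of the 39 other genes, 14 were higher and 3 lower at day 1, among them Dhcr7, the last reductase of the pathway (11.9 to 53.8 TPM, 2.09).

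From day 1 to day 3 of the shLuc arm, Fdps fell from 428.5 and 454.8 TPM to 229.6 and 183.7 TPM, and Idi1 from 141.5 and 133.1 TPM to 70.7 and 38.5 TPM. Neither gene's libraries overlapped. The differences were -1.10 ± 0.204 (adjusted p = 0.00645) for Fdps and -1.38 ± 0.331 (adjusted p = 0.0368) for Idi1, and these 2 were the calls among the 8, against 2.57% of all genes. Both rest on few libraries. Fdps was lost without day 1 replicate 2 (-1.06, adjusted p = 0.0677) or day 3 replicate 2 (-0.94, adjusted p = 0.1), and Idi1 without day 1 replicate 1 (-1.33, adjusted p = 0.178), day 1 replicate 2 (-1.42, adjusted p = 0.151) or day 3 replicate 2 (-0.95, adjusted p = 0.362). The other 6 were not called, with differences from -0.59 for Hmgcs1 to 0.59 for Insig1. Between days 1 and 7 none of the 8 was called by limma without a replicate block, against 6.83% of all genes. An unadjusted p under 0.05 was found for 3 of the 8, against 3764 of the 21303 genes tested. With replicate number as a block, Srebf2 was called higher at day 7 (0.60, adjusted p = 0.0482). It was at 89.1 and 87.9 TPM at day 1 and 140.6 and 129.8 TPM at day 7. Over the 3 arms the fibroblast markers summed to 1108 to 2824 TPM at day 1 and 363.3 to 520.4 TPM at day 7, and the epithelial markers to 6.88 to 43.3 TPM and 219.8 to 371.1 TPM. In bulk libraries fewer cells of a type and less RNA per cell cannot be told apart, and the part of this shift in the members' levels was not tested.

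By the standard error, replicates of the time course differed most for Lss, then Insig1 and Hmgcs1. At day 7 Insig1 was at 194.8, 168.0 and 249.4 TPM in the libraries numbered 1 of shLuc, shYthdf2 and shYthdf3, and at 87.9, 63.9 and 97.7 TPM in those numbered 2. Lss was at 65.9, 96.7 and 99.2 TPM in the former and 28.9, 25.7 and 20.97 TPM in the latter. For both genes every library numbered 1 at day 7 was above every library numbered 2, in all 3 arms. Mitochondrial transcripts took 3.96 to 6.95% of TPM in the libraries numbered 1 of the time course and 7.58 to 14.9% in those numbered 2. Within the time course the standard error of a difference between days was 0.741 for Lss, 0.484 for Insig1 and 0.204 for Fdps.

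Of the 8 genes, 6 were called lower in shLuc iPS cells than at day 7 of reprogramming, against 30.1% of all genes. Idi1 (-0.60, adjusted p = 0.0891) and Lss (-0.80, adjusted p = 0.381) were not called. Fdps was at 319.7 and 288.5 TPM at day 7 and 155.7 and 153.2 TPM in iPS cells (-0.97 ± 0.152, adjusted p = 1.59e-05). Srebf2 was at 140.6 and 129.8 TPM and then 64.4 and 68.9 TPM (-1.01 ± 0.162, adjusted p = 2.2e-05), and Fdft1 differed by -1.00 ± 0.177 (adjusted p = 7.29e-05). The calls of these 3 genes held without any 1 library. Without day 7 replicate 1, those of Sqle (-0.44, adjusted p = 0.207), Hmgcs1 (-0.60, adjusted p = 0.287) and Insig1 (-0.62, adjusted p = 0.359) were lost, and the latter pair was also lost without iPS replicate 1 (adjusted p = 0.0841 and 0.0751) or iPS replicate 2 (adjusted p = 0.107 and 0.0894). Without day 7 replicate 2, Idi1 was called as well (-0.96, adjusted p = 0.0172). The members' median was -0.95 and that of all genes -0.04. Day 7 and iPS cells belong to separate experiments and grew in different media, which cannot be told apart from the change of state. Among the 39 other genes 20 were lower and 2 higher, with Scd1 at 249.4 TPM at day 7 and 31.5 TPM in iPS cells (-2.94).

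In pluripotent cells several of the genes were higher with either hairpin than with shLuc. In ES cells Insig1, the sterol-dependent anchor, was at 43.3 and 40.1 TPM with shLuc, 76.3 and 71.9 TPM with shYthdf2 and 76.3 and 82.0 TPM with shYthdf3. In iPS cells Insig1 was at 57.8 and 55.8 TPM with shLuc, 96.2 and 99.6 TPM with shYthdf2 and 119.7 and 120.1 TPM with shYthdf3. Both knockdown arms were above the shLuc libraries without overlap in both cell types. The differences were 0.82 ± 0.075 (adjusted p = 0.000136) and 0.91 ± 0.075 (adjusted p = 6.53e-05) in ES cells for shYthdf2 and shYthdf3, and 0.77 ± 0.075 (adjusted p = 0.000359) and 1.06 ± 0.075 (adjusted p = 3.09e-05) in iPS cells. Both arms share the same shLuc libraries, so their values are given side by side and not as 2 independent results.

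Fdps, which makes farnesyl diphosphate, was at 165.5 and 154.7 TPM in ES cells with shLuc, 272.7 and 265.5 TPM with shYthdf2 and 240.6 and 217.0 TPM with shYthdf3. In iPS cells it was at 155.7 and 153.2 TPM, 222.0 and 239.3 TPM, and 234.0 and 230.5 TPM in the same order. Each knockdown arm was again wholly above its control. The differences were 0.75 ± 0.072 (adjusted p = 0.000212) and 0.51 ± 0.072 (adjusted p = 0.0043) in ES cells and 0.57 ± 0.072 (adjusted p = 0.0024) and 0.58 ± 0.072 (adjusted p = 0.00152) in iPS cells. The squalene synthase gene Fdft1 was at 62.5 and 54.2 TPM with shLuc, 86.0 and 84.2 TPM with shYthdf2 and 75.9 and 82.7 TPM with shYthdf3 in ES cells, with differences of 0.54 ± 0.086 (adjusted p = 0.00512) and 0.44 ± 0.086 (adjusted p = 0.029). In iPS cells Fdft1 differed by 0.54 ± 0.086 (adjusted p = 0.00794) and 0.48 ± 0.086 (adjusted p = 0.0135).

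**Figure D2:**
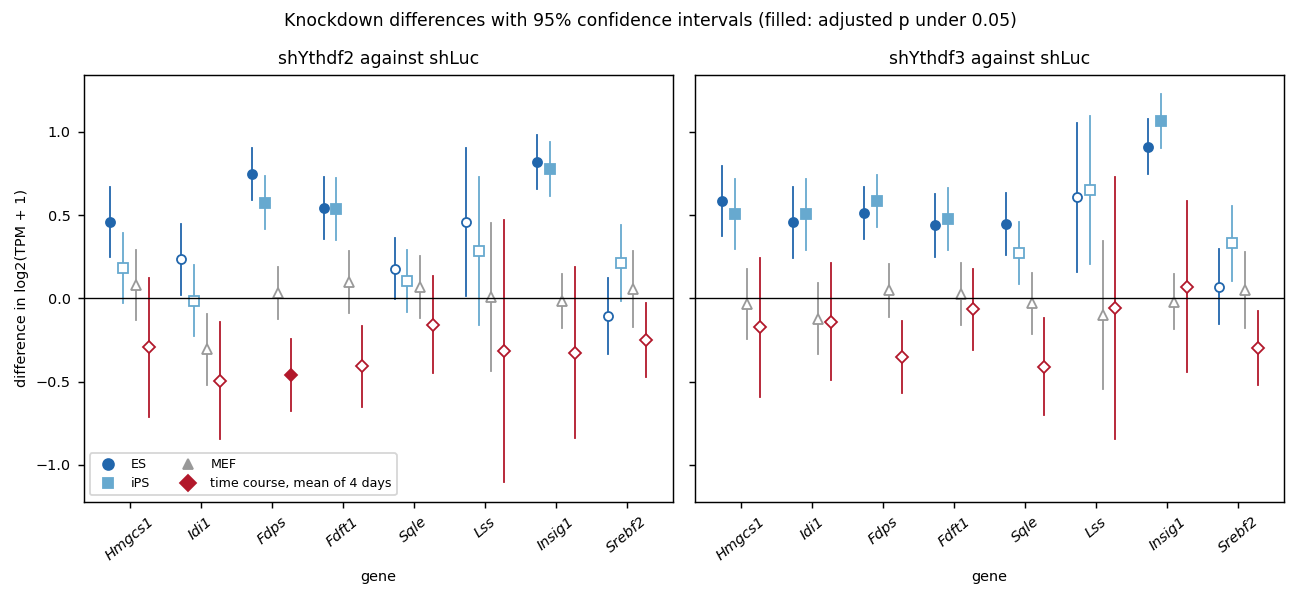
Difference in log2(TPM + 1) from shLuc (y axis) for each gene (x axis) with shYthdf2 (left) and shYthdf3 (right) in ES cells, iPS cells, MEFs and over the 4 days of the time course. Symbols are limma estimates, bars are 95% confidence intervals, and filled symbols passed an adjusted p of 0.05. Insig1 lies at 0.82 and 0.91 in ES cells and at -0.02 in MEFs for both hairpins, and Fdps with shYthdf2 lies at 0.75 in ES cells and at -0.46 over the time course.

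With shYthdf2, 4 of the 8 genes were called higher in ES cells, the fourth being Hmgcs1 (0.46, adjusted p = 0.023), against 3.65% of all genes called in either direction, and 3 in iPS cells (Insig1, Fdps and Fdft1) against 2.48%. With shYthdf3 the count was 6 in ES cells against 1.64%, where Hmgcs1 (0.58), Idi1 (0.46) and Sqle (0.45) joined Insig1, Fdps and Fdft1, and 5 in iPS cells against 2.89%, where Hmgcs1 (0.51) and Idi1 (0.51) joined them. None of the 8 was called lower. The median difference of the 8 was 0.46 and 0.25 with shYthdf2 and 0.48 and 0.51 with shYthdf3 in ES and iPS cells, and that of all genes lay between -0.03 and 0.01. Srebf2, whose product drives the pathway, was at 48.9 and 56.9 TPM with shLuc in ES cells and 49.1 and 48.8 TPM with shYthdf2 (interval of the difference -0.33 to 0.12), and was called in none of these 4 comparisons. With shYthdf3 in iPS cells, however, all 8 estimates were above 0, the lowest at 0.27. There all 8, Srebf2 included, had an unadjusted p under 0.05 by limma, as did 2776 of the 17985 genes tested. The calls of Insig1 and Fdps held in all 4 comparisons without any 1 library. Hmgcs1 with shYthdf2 in ES cells was lost without any 1 of the 4 libraries (adjusted p 0.0608 to 0.142), as were Hmgcs1 and Idi1 with shYthdf3 in iPS cells (0.0782 to 0.113 and 0.0635 to 0.14). Fdft1 with shYthdf2 was lost in ES cells without shYthdf2 replicate 1 (0.53, adjusted p = 0.0502) and in iPS cells without shLuc replicate 1 (0.47, adjusted p = 0.0749) or shYthdf2 replicate 1 (0.53, adjusted p = 0.0643). With shYthdf3, Fdft1 was lost in ES cells without shLuc replicate 2 (0.34, adjusted p = 0.154) or shYthdf3 replicate 2 (0.38, adjusted p = 0.135), and in iPS cells without shLuc replicate 1 (0.41, adjusted p = 0.107), shYthdf3 replicate 1 (0.49, adjusted p = 0.0752) or shYthdf3 replicate 2 (0.46, adjusted p = 0.1). In ES cells with shYthdf3, Hmgcs1 was lost without shLuc replicate 2 (0.53, adjusted p = 0.0794), Idi1 in 3 of 4 such fits, those without shLuc replicate 1 (0.37, adjusted p = 0.199), shLuc replicate 2 (0.54, adjusted p = 0.069) or shYthdf3 replicate 2 (0.36, adjusted p = 0.187), and Sqle in 3 of 4, those without shLuc replicate 1 (0.46, adjusted p = 0.0908), shLuc replicate 2 (0.43, adjusted p = 0.106) or shYthdf3 replicate 1 (0.37, adjusted p = 0.108).

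Other genes of the pathway lists also had calls of higher expression in pluripotent cells. Of the 39 other genes, 9 in ES and 8 in iPS cells were called higher with shYthdf2, and 6 in each with shYthdf3, and none was called lower. In ES cells these included 1 efflux and 2 fatty acid synthesis genes with each hairpin. In iPS cells they included 2 efflux genes and 1 fatty acid synthesis gene with shYthdf2, and 0 and 1 with shYthdf3. Msmo1, the sterol C4-methyl oxidase, went from 66.1 TPM with shLuc in ES cells to 115 TPM with shYthdf2 (0.79, adjusted p = 0.00219) and 109 TPM with shYthdf3 (0.72, adjusted p = 0.0061). Nsdhl, which acts beside it, went from 17.9 TPM in iPS cells to 30.0 TPM with shYthdf2 (0.72, adjusted p = 0.0157) and 29.7 TPM with shYthdf3 (0.69, adjusted p = 0.0177). The desaturase Scd2 went from 108 to 160 and 165 TPM in ES cells (0.57 and 0.59). Among these genes Mylip also rose with shYthdf2, from 1.29 to 3.73 TPM in ES cells (1.04) and from 2.25 to 4.34 TPM in iPS cells (0.72). The pluripotency markers summed to 4647 and 5031 TPM in shLuc and 5679 and 6214 TPM in shYthdf2 ES cells, and to 4711 and 4662 TPM and 5721 and 5426 TPM in iPS cells. With shYthdf3 they summed to 5071 and 4666 TPM in ES cells and to 4682 and 4437 TPM in iPS cells. The endothelial markers, of which 2 or 3 of 6 reached 1 TPM in each library, summed to 44.9 to 49.3 TPM in shLuc and 55.8 to 60.0 TPM in knockdown ES cells, and to 43.8 to 45.3 TPM and 59.5 to 64.2 TPM in iPS cells. The part of both lists in the result was not tested.

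In MEFs none of the 8 genes was called by limma with either hairpin, against 1.46% of all genes with shYthdf2 and 0.628% with shYthdf3. An unadjusted p under 0.05 was found for 1 of the 8 with shYthdf2 and 0 with shYthdf3, against 2117 and 2359 of the 17985 genes tested. Insig1 was at 58.8 and 55.5 TPM with shLuc, 56.3 and 56.5 TPM with shYthdf2 and 59.6 and 53.2 TPM with shYthdf3, so the arms overlapped. Its interval was -0.18 to 0.15 with shYthdf2 and -0.18 to 0.14 with shYthdf3. Fdps was at 315.6 and 311.4 TPM with shLuc, 323.5 and 318.3 TPM with shYthdf2 and 303.4 and 346.2 TPM with shYthdf3 (intervals -0.12 to 0.19 and -0.11 to 0.20). None of the 39 other genes was called in MEFs. The difference between cell types was itself tested, in contrasts added after the data were seen. With shYthdf2 the change of Insig1 in ES cells exceeded that in MEFs by 0.83 ± 0.106 (adjusted p = 0.00327) and that of Fdps by 0.71 ± 0.102 (adjusted p = 0.00644), the 2 calls among the 8, against 1.17% of all genes. In iPS cells the excess was 0.79 ± 0.106 for Insig1 (adjusted p = 0.00742) and 0.54 ± 0.102 for Fdps (adjusted p = 0.039), against 0.728%. With shYthdf3 it was 0.93 ± 0.106 for Insig1 in ES cells (adjusted p = 0.00188; 0.734% of all genes called), and 1.08 ± 0.106 for Insig1 (adjusted p = 0.00161) and 0.54 ± 0.102 for Fdps (adjusted p = 0.0482) in iPS cells, against 0.456%. The Insig1 calls held without any 1 library. The Fdps call with shYthdf2 in ES cells also held, that in iPS cells was lost without any 1 of the 8 libraries (adjusted p 0.071 to 0.131), and with shYthdf3 the Fdps call in iPS cells was lost in 7 of 8 such fits, all but that without MEF shYthdf3 replicate 2 (highest adjusted p 0.17). With shYthdf3 in ES cells, Hmgcs1 and Sqle were also called without MEF shYthdf3 replicate 1 (0.70 and 0.56), Hmgcs1 without ES shYthdf3 replicate 1 (0.79) and Fdps without MEF shYthdf3 replicate 2 (0.56). Ythdf2 itself was not called lower in shYthdf2 MEFs, as given above, and the part of knockdown depth in the difference was not tested.

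Along the time course Fdps was lower, not higher, with shYthdf2. With shYthdf2 Fdps was at 353.6 and 356.0 TPM at day 1, 162.7 and 110.6 TPM at day 3, 169.7 and 188.2 TPM at day 5 and 227.3 and 206.5 TPM at day 7. The shLuc values were 428.5 and 454.8, 229.6 and 183.7, 206.4 and 281.9, and 319.7 and 288.5 TPM. At each of the 4 days the shYthdf2 libraries were below the shLuc libraries without overlap, though Fdps was called at no single day. Averaged over the days, Fdps was lower by -0.46 ± 0.102 (adjusted p = 0.021), the 1 call among the 8, against 3.54% of all genes. All 8 estimates were below 0, with a median of -0.32 against -0.02 for all genes. With replicate number as a block, which pairs these samples, Idi1 (-0.50, adjusted p = 0.0303) and Fdft1 (-0.41, adjusted p = 0.014) were called as well, 3 genes in all. Idi1 was at 141.5 and 133.1 TPM with shLuc and 78.3 and 88.7 TPM with shYthdf2 at day 1, where it did not overlap. Fdft1 was at 127.0 and 121.4 TPM with shLuc and 82.2 and 86.4 TPM with shYthdf2 at day 5, where its libraries were also apart. The Fdps call held in 12 of 16 fits without 1 library and was lost without shLuc day 1 replicate 2 (-0.45, adjusted p = 0.0553), shLuc day 3 replicate 1 (-0.42, adjusted p = 0.0511), shLuc day 5 replicate 2 (-0.40, adjusted p = 0.0542) or shYthdf2 day 3 replicate 2 (-0.39, adjusted p = 0.0518). Fdft1 was called without shYthdf2 day 3 replicate 1 (-0.50, adjusted p = 0.0127). The fibroblast markers summed higher in both shYthdf2 than in both shLuc libraries at each day, 2233 and 2824 against 1772 and 2093 TPM at day 1 and 488.3 and 520.4 against 436.6 and 433.0 TPM at day 7. The macrophage markers summed higher with shYthdf2 than in the shLuc library of the same number at each day, with 14.8 and 41.6 against 6.46 and 21.5 TPM at day 5 and 15.6 and 44.8 against 6.60 and 21.1 TPM at day 7, where 1 to 3 of the 6 reached 1 TPM. The pluripotency markers summed to 147.5 and 191.4 TPM with shYthdf2 and 72.4 and 94.0 TPM with shLuc at day 7. The part of these lists in the result was not tested.

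With shYthdf3, none of the 8 was called over the 4 days in the limma fit without a replicate block, against 5.26% of all genes. In that fit 3 had an unadjusted p under 0.05, as did 3763 of the 21303 genes tested. Fdps was at 315.1 and 375.2 TPM at day 1 and 210.8 and 211.1 TPM at day 7 (-0.35 ± 0.102 over the days, adjusted p = 0.0576), and was called without shLuc day 5 replicate 1 (-0.41, adjusted p = 0.0393). With the replicate block, Fdps (adjusted p = 0.023) and Sqle (-0.41, adjusted p = 0.0401) were called lower. Sqle was at 57.5 and 71.3 TPM with shYthdf3 and 93.4 and 103.1 TPM with shLuc at day 1. None of the 8 was called at any single day with either hairpin by limma, with or without the block. Of all genes 0.0141%, 0.0798%, 0.178% and 0.131% were called at days 1, 3, 5 and 7 with shYthdf2, and 0.108%, 0.202%, 0.638% and 0.573% with shYthdf3. Among the 8, 1 or 2 had an unadjusted p under 0.05 at each day with shYthdf2 and at days 1 and 7 with shYthdf3. Of the 21303 genes tested, 987, 1528, 1523 and 1125 did so at days 1, 3, 5 and 7 with shYthdf2. With shYthdf3, 1692 and 1809 did so at days 1 and 7. The change in the effect from day 1 to day 7 was called for none of the 8 with either hairpin, and none had an unadjusted p under 0.05 (0.00469% and 0.00% of all genes called). Set against each other over the 4 days, the 2 knockdown arms gave no call among the 8, against 7.01% of all genes. Before adjustment 2 of the 8 passed 0.05, as did 4123 of the 21303 genes tested. With the block Fdft1 was lower with shYthdf2 than with shYthdf3 (-0.34, adjusted p = 0.0248), and without shYthdf2 day 3 replicate 1 it was called as well (-0.44, adjusted p = 0.0172). Of the 39 other genes, 5 were lower and 1 higher with shYthdf2, and 4 lower with shYthdf3. Scd1 went from 210 TPM to 133 TPM with shYthdf2 (-0.67, adjusted p = 0.00275) and 128 TPM with shYthdf3 (-0.73, adjusted p = 0.001), and Nsdhl from 60.9 TPM to 41.6 (-0.58) and 38.9 TPM (-0.60). With shYthdf3 the fibroblast markers summed below both shLuc libraries at days 1, 3 and 7 and overlapped at day 5. At day 3 they were at 705.8 and 711.7 against 1029 and 1325 TPM. The epithelial markers summed lower at days 5 and 7 and overlapped at days 1 and 3. At day 7 they were at 282.9 and 219.8 against 369.3 and 371.1 TPM. The part of these lists in the shYthdf3 results was not tested.

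The contrast between pluripotent cells and the time course was tested in the joint fit, also added after the data were seen. With shYthdf2 the mean change in ES and iPS cells exceeded that over the 4 days by 1.12 ± 0.132 for Fdps (adjusted p = 2.34e-05) and 0.95 ± 0.153 for Fdft1 (adjusted p = 0.000955), the 2 calls among the 8, against 1.69% of all genes. With shYthdf3 it did so by 0.90 ± 0.132 for Fdps (adjusted p = 0.000227) and 0.77 ± 0.184 for Sqle (adjusted p = 0.023), against 2.32%. Insig1 had an estimate of 1.12 ± 0.332 with shYthdf2 and was not called (adjusted p = 0.0942). With the replicate block it was (adjusted p = 0.00332), and with shYthdf3 the block gave 6 calls, adding Hmgcs1 (0.72), Fdft1 (0.52), Insig1 (0.92) and Srebf2 (0.50). Cell state, medium and the reprogramming factors all differ between these libraries and cannot be told apart.

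TEAD2 is a DNA-binding partner of YAP. Tead2 was at 92.9 and 92.1 TPM with shLuc and 38.0 and 29.3 TPM with shTead2 at day 1 (-1.44 ± 0.17), without overlap, and was not called in this fit of 4 libraries (adjusted p = 0.213). None of the 8 genes was called by limma, against 0.0879% of all genes, and none had an unadjusted p under 0.05. Estimates ran from -0.22 for Fdft1 (79.0 and 77.5 TPM against 60.9 and 73.7 TPM) to 0.19 for Lss, with a median of 0.05. The interval was -0.38 to 0.15 for Insig1 and -0.26 to 0.32 for Srebf2. The endothelial markers summed to 17.0 and 17.3 TPM with shLuc, where 2 of 6 reached 1 TPM, and to 210.1 and 99.4 TPM with shTead2, where 6 of 6 did. The epithelial markers summed to 34.2 and 31.0 TPM with shLuc and 108.9 and 50.1 TPM with shTead2, and the macrophage markers to 33.3 and 24.9 TPM and 108.0 and 17.1 TPM. The part of these lists was not tested.

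Actinomycin D separated the genes by how much RNA was left. Sqle in shLuc cells was at 117.4 and 104.4 TPM after 4 h of DMSO and 33.3 and 38.3 TPM after 4 h of actinomycin D. After 8 h it was at 117.1 and 96.1 TPM in DMSO and 7.42 and 7.37 TPM with the drug, 6.34 and 7.67% of the DMSO library of the same number. The differences were -1.61 ± 0.197 (adjusted p = 8.7e-05) and -3.67 ± 0.197 (adjusted p = 3.78e-08), with no overlap at either time. Insig1 was at 108.8 and 111.8 TPM in DMSO and 34.3 and 45.3 TPM with the drug at 4 h, and at 115.9 and 104.6 TPM against 19.3 and 36.4 TPM at 8 h (-1.46 ± 0.309, adjusted p = 0.00472, and -2.01 ± 0.309, adjusted p = 0.000139). Hmgcs1 was at 142.7 and 230.2 TPM against 67.02 and 97.4 TPM at 4 h, and at 179.4 and 177.7 TPM against 35.3 and 47.4 TPM at 8 h (-1.16 ± 0.333, adjusted p = 0.031, and -2.10 ± 0.333, adjusted p = 0.000181). These 3 genes were the calls at both times, against 12.9% of all genes at 4 h and 30.0% at 8 h. At 8 h the count is near the share of all genes and says little about the 8 as a set.

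The other 5 were not called at either time. Lss was at 104.7 and 106.2 TPM in DMSO and 104.0 and 137.8 TPM with the drug at 8 h, Fdps at 558.3 and 409.4 TPM against 563.7 and 349.1 TPM, and Idi1 at 131.8 and 125.5 TPM against 98.0 and 131.8 TPM. All 3 overlapped. Srebf2 was at 115.6 and 91.8 TPM against 91.1 and 79.3 TPM, and Fdft1 at 144.2 and 102.6 TPM against 85.4 and 66.8 TPM, which did not overlap. As a share of the DMSO mean, Sqle kept 6.94%, Hmgcs1 23.1%, Insig1 25.3%, Fdft1 61.6%, Srebf2 82.2%, Idi1 89.3%, Fdps 94.3% and Lss 114.7% at 8 h, and the median of 11207 genes with at least 5 TPM in DMSO was 48.0%. Of those 11207 genes, 6.7% kept a smaller share than Sqle, 26.6% than Hmgcs1 and 28.7% than Insig1. TPM is relative, and in log2(TPM + 1) the median of all genes shifted by -0.31 at 4 h and -0.63 at 8 h, so a gene near 0 stood above most others. With libraries scaled by the median ratio Lss (1.11, adjusted p = 0.00784) and Idi1 (0.75, adjusted p = 0.0452) were called higher at 8 h, against -0.18 for Idi1 unscaled, and Hmgcs1 was not called at 4 h (-0.70, adjusted p = 0.103). With replicate number as a block, which pairs these samples, Fdft1 was also called lower at both times (-0.46, adjusted p = 0.0143, and -0.68, adjusted p = 0.000363), as was Srebf2 at 8 h (-0.27, adjusted p = 0.0361), 5 genes in all. At 4 h the Hmgcs1 call was lost without drug replicate 1 (-0.89, adjusted p = 0.247) or DMSO replicate 2 (-0.81, adjusted p = 0.285), and that of Insig1 without drug replicate 1 (-1.27, adjusted p = 0.0631), while the calls at 8 h held without any 1 library. From 4 h to 8 h of the drug itself, a contrast added after the data were seen, Sqle fell further (-2.13 ± 0.197, adjusted p = 0.000273), the 1 call among the 8 against 2.09% of all genes. With the block Hmgcs1 was called too (-0.97, adjusted p = 0.00922).

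**Figure D3:**
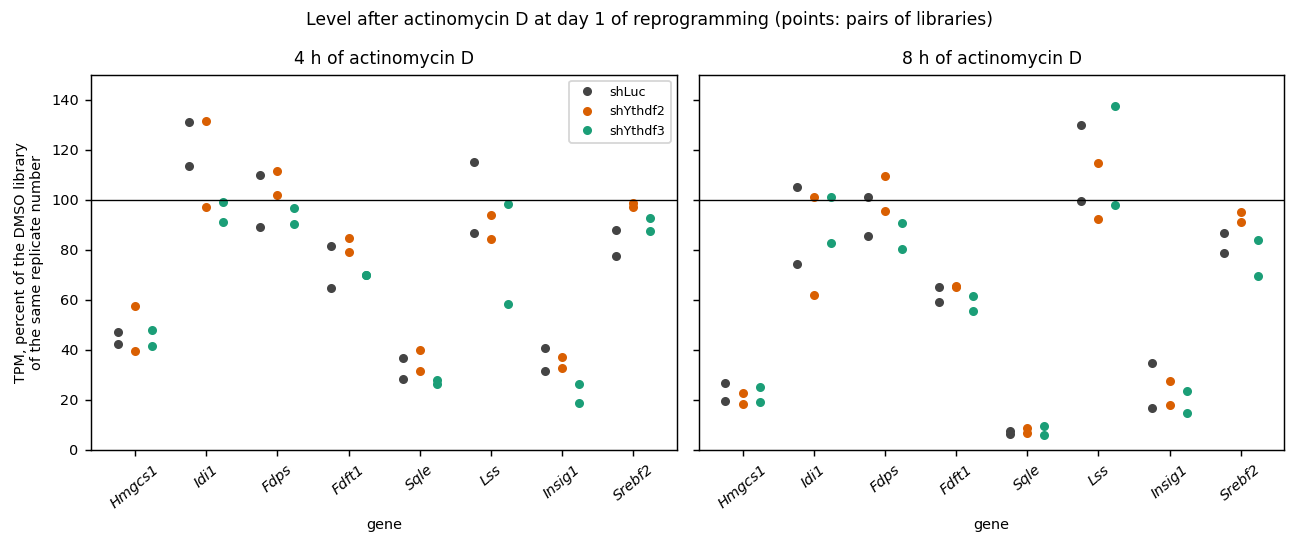
TPM after actinomycin D as a percent of the DMSO library of the same replicate number (y axis, linear; line at 100) for each gene (x axis) at 4 h (left) and 8 h (right), with colours for the 3 hairpins and 1 point per pair of libraries. Sqle, Hmgcs1 and Insig1 lie lowest in all 3 arms, and at 8 h shLuc Sqle is at 6.34 and 7.67%.

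The same shares were taken in the knockdown arms. In DMSO, Ythdf2 was lower with shYthdf2 (-1.74, adjusted p = 0.00447), and Ythdf3 with shYthdf3 had an estimate of -2.33 that was not called (adjusted p = 0.0777). At 8 h Sqle kept 7.58% of its DMSO mean with shYthdf2 and 7.58% with shYthdf3, and Insig1 22.1% and 19.4%. Persistence, the drug effect in a knockdown minus that in shLuc over both times, was called for none of the 8 with either hairpin by limma, and none had an unadjusted p under 0.05 (0.0156% of all genes called with shYthdf2 and 0.00518% with shYthdf3). With the replicate block none was called either. The intervals, from the fit without the block, were wide. That of Sqle was -0.29 to 0.54 with shYthdf2 and -0.47 to 0.36 with shYthdf3, and that of Insig1 -0.74 to 0.58 and -1.16 to 0.16. In DMSO alone none of the 8 differed between a knockdown and shLuc at the threshold, against 0.342% of all genes with shYthdf2 and 0.700% with shYthdf3. An unadjusted p under 0.05 was found for 0 and 2 of the 8, against 1404 and 1907 of the 19290 genes tested. With shYthdf3 all 8 DMSO estimates were below 0 (median -0.37, all genes -0.07), and Sqle was at 79.5 and 86.2 TPM at 4 h against 117.4 and 104.4 TPM with shLuc. With shYthdf2, 5 of the 8 DMSO estimates were above 0 and 3 below (median 0.07, all genes 0.00). Fdps, lower with shYthdf2 over the 4 days of the time course, was not called here, where all cultures were at day 1. The difference between the 2 experiments was not tested. Fdps was at 586 and 467 TPM at 4 h with shYthdf2 against 587 and 372 TPM with shLuc. At 8 h it was at 605 and 429 TPM against 558 and 409 TPM. DMSO at 8 h against 4 h gave no call and no unadjusted p under 0.05 among the 8 (0.0104% of all genes called). Of the 39 other genes 5 were called lower at 4 h of the drug and 9 at 8 h, shares no higher than the 12.9% and 30.0% of all genes called in either direction, with Msmo1 at 259 and 150 TPM (-0.78) and then 250 and 92.9 TPM (-1.40) and Stard4, a sterol carrier, at 62.5 and 12.5 TPM (-2.30) at 8 h.

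Across the 21 group means of the time course and cell lines, the 8 genes did not vary as one. Sqle and Srebf2 were the pair most alike (r = 0.921), followed by Fdft1 and Insig1 (r = 0.888), while Insig1 and Fdps (r = -0.165) were least alike. The groups share media, cell types and hairpins, so these values describe the groups and carry no test. Against the mean of the 8 standardized profiles, Hmgcs1 (r = 0.920) and Lss (r = 0.911) were the closest members and Fdps (r = 0.544) the farthest. Each member is itself part of that mean, which raises its r, so these values cannot be set against those of non-members. Among 16069 genes, the 6 non-members most like that mean were Stard4 (r = 0.875), Cyp51 (r = 0.874), Scd1 (r = 0.874), Msantd4 (r = 0.873), Csnk1g2 (r = 0.852) and Trip10 (r = 0.843), of which the first 3 are in the pathway lists.

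The chromatin data gave 1 peak list per library and no replicates, so presence of a peak is a description. ATAC-seq, which marks open chromatin, had a peak over each of the 5 promoter windows in 12 of 12 lists, for 3 arms and 4 days, where 36.2 to 41.2% of all 32817 promoters had one. The widths of these peaks ranged from 324 to 476 bases for Lss and from 622 to 937 bases for Insig1. Neither the day nor the hairpin separated the lists by presence of a peak. TEAD2 ChIP-seq at day 1 had a peak over 2 of the 5 windows, against 9.95% of all promoters. Both shares are of all promoters, closed ones included. They were not taken among open promoters or those of expressed genes, so neither count can be read as enrichment. The Insig1 peak ran from -365 to 97 and the Srebf2 peak from -276 to 47, counted from the start of each gene as 0. No TEAD2 peak lay within 1 kb of the start of Hmgcs1, Idi1 or Lss. Over the gene bodies with 1 kb on either side, a TEAD2 peak was listed at Insig1, Srebf2, Fdps and Fdft1 and at none of the other 4. The share of all genes with a peak by this wider measure was not taken, so the count cannot be read as enrichment. None of these genes was called with shTead2, as given above.

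**Figure D4:**
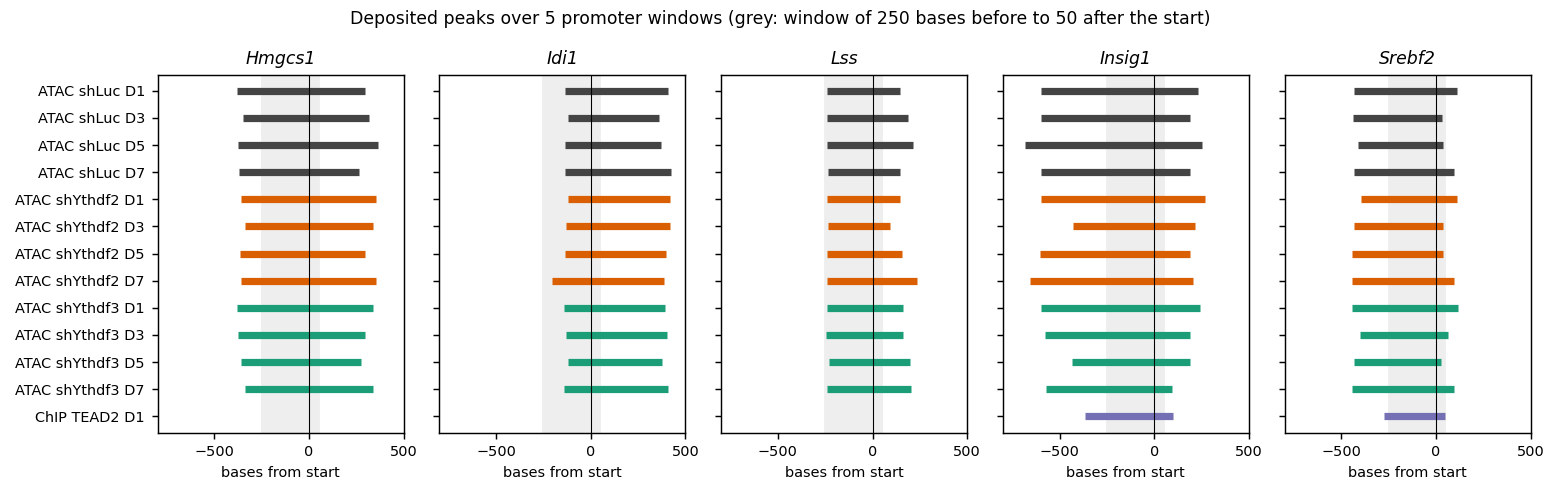
Extent of the deposited peaks over 5 promoters (x axis, bases from the start of the gene; grey, the window) in the 12 ATAC-seq lists and the TEAD2 ChIP-seq list (y axis, 1 list per row; colours are the hairpins, with purple for TEAD2). Each promoter has an ATAC-seq peak in all 12 lists, and TEAD2 bars are drawn at Insig1 and Srebf2.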

How the data were processed

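Expression values are TPM made by the authors and deposited in 2 tables. The submitters' processing notes name Bowtie2, SAMtools, MACS2, RSEM and deepTools and the build mm10, with tool versions not given in the sources used. TPM keeps no depth, so no counting interval is given. The peak lists, 1 per library, were used as deposited, by position only. In R 4.3.3, limma 3.58.1 with a trended prior was fitted to log2(TPM + 1) by group, separately for the time course (21303 genes), cell lines (17985), Tead2 experiment (14783) and actinomycin D libraries (19290), and jointly for time course and cell lines (23113), after a filter of 1 TPM in at least 2 libraries. Tests are two-sided, and the scripts were tested on simulated data. There were 34 planned comparisons and 7 added after the data were seen. The 8 genes, the 39 genes of 6 pathway lists, the markers and the tests were chosen with earlier results of these data known. In each comparison at most 4 list genes past the threshold were named, by smallest adjusted p, and some list genes are counted but not named here. The 6 genes most like the members were named by Pearson's r. Replicate numbers paired samples of the time course (correlation of deviations 0.276 to 0.497) and of the actinomycin D experiment (0.122 to 0.388), from the data and not the labels. Alternatives were a pseudocount of 0.1, no filter, median-ratio scaling, a replicate block, other day 1 libraries and leaving out each library. A spike-in table was not used, since its 24 columns matched no sample by name.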

Additional observations from a re-analysis of the deposited data

Results flagged for a closer look

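In 11 cases the effect of a hairpin on 1 of the 8 genes differed between groups by a test of the difference itself. The groups were ES or iPS cells and MEFs, or pluripotent cells and the time course. These contrasts were added after the data were seen (limma, adjusted over all genes). Of all genes, 0.456 to 1.17% were called in the contrasts with MEFs, and 1.69% and 2.32% in those with the time course. With shYthdf2 the effect in ES cells minus that in MEFs was 0.71 for Fdps and 0.83 for Insig1, and in iPS cells minus MEFs 0.54 for Fdps and 0.79 for Insig1. With shYthdf3 it was 0.93 for Insig1 in ES cells, and 0.54 for Fdps and 1.08 for Insig1 in iPS cells. Against the time course, the mean effect in ES and iPS cells was higher by 1.12 for Fdps and 0.95 for Fdft1 with shYthdf2, and by 0.90 for Fdps and 0.77 for Sqle with shYthdf3. The contrasts share libraries, so they are not independent of each other. The Fdps calls in iPS cells minus MEFs were lost in most or all fits without 1 library, as given above. Between pluripotent cells and the time course, cell state, medium and the reprogramming factors differ together.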

How the results depend on the processing

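Of 68 called results, 67 stayed called with a pseudocount of 0.1, 64 with no filter, 60 with median-ratio scaling and 64 with the replicate block. Of 260 results not called without the block, 15 were called with it. Called among the 8 genes were, with median-ratio scaling, 2 from day 1 to day 7, 2 with shYthdf2 and 1 with shYthdf3 over the time course, 3 for iPS against ES cells (3 also with no filter), 1 each for shYthdf2 in ES minus MEF, shYthdf2 in iPS minus MEF and shYthdf3 in iPS minus MEF, 5 at 8 h of actinomycin D and 6 for shYthdf3 in pluripotent cells minus the time course. Idi1 at 8 h of the drug reversed to 0.75 with that scaling. It divides all genes of a library by 1 factor, from 0.570 to 1.38 in the actinomycin D libraries. The reversal is therefore a shift of the reference for all genes and is not particular to Idi1. With the replicate block the counts were 1 from day 1 to day 7, 3 with shYthdf2, 2 with shYthdf3 and 1 for shYthdf2 against shYthdf3 over the time course, 1 each for both hairpins in iPS minus MEF, 5 at 8 h of the drug, 2 for 8 h against 4 h of it and 6 for shYthdf3 in pluripotent cells minus the time course. In the cell line and Tead2 libraries same-numbered samples share only a number (correlations -0.126 to 0.074, and -0.022). With the other day 1 libraries 2 genes differed from MEFs.

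Without 1 library the counts ran from 0 to 2 for days 1 to 3, 0 to 2 with shYthdf2 and 0 to 1 with shYthdf3 over the time course, and 0 to 1 between the knockdowns. They ran from 3 to 4 for iPS against ES cells, 2 to 3 for shYthdf2 in ES cells, 2 to 5 and 2 to 3 for shYthdf3 in ES and iPS cells, 1 to 1 for shYthdf2 in iPS minus MEF, and 1 to 3 and 1 to 2 for shYthdf3 in ES and iPS minus MEF. They ran from 1 to 3 at 4 h of the drug, 1 to 2 for day 1 against MEFs and 3 to 7 for iPS cells against day 7. Of 296 such values of called results 212 stayed called and 0 reversed. The contrasts of pluripotent cells with the time course were not refitted without single libraries. With 2 libraries per group and no depth, small differences could not be resolved.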
